A study of Mus musculus with 3 samples.

Results

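Muscle of old mice fed eicosapentaenoic acid (EPA) was compared with muscle of young mice, both as pooled RNA of the gastrocnemius and plantaris. The aged EPA library holds RNA of 6 male C57BL/6J mice aged 87 weeks, which had received a diet with 1 wt% EPA for 12 weeks from 75 weeks of age. The young library holds RNA of 3 male mice aged 24 weeks, whose strain the label spells C57BL/7J and whose diet is not given in the sources used here. These are 2 of the 3 libraries of the series. The third, aged control, holds RNA of 6 male C57BL/6J mice aged 87 weeks on an EPA-deprived diet over the same 12 weeks, and its values stand beside the others without being a part of the comparison. Each group is 1 library of pooled mice, so no value carries an error between mice and no test between groups can be made. In aged EPA against young, age, diet, strain label and library preparation cannot be told apart. Genes were joined by Ensembl identifier, and 12966 of the 42258 genes in the tables had a mean of at least 1 CPM (counts scaled to the size of the library) over the 3 libraries and were compared.

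Skeletal muscle loses mass and force with age, and its capillaries, mitochondria, fibre types and resident immune cells are among the compartments known to change. EPA is a long-chain polyunsaturated fatty acid of fish oil that enters membrane lipids, serves as a substrate of the enzymes that make eicosanoids, and can bind the peroxisome proliferator-activated receptors (PPARs), nuclear receptors that drive genes of fatty acid uptake and oxidation. Gastrocnemius and plantaris of the mouse are mainly fast muscles, with few slow fibres.

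The libraries were of similar depth, with 57386394 counts recovered in the young library, 57622886 in aged control and 55969822 in the library of EPA-fed mice. The label of the tissue fitted the markers: all 10 skeletal muscle markers were present in each library, and their sum was 81594 CPM in the young and 92635 CPM in the aged EPA library. Mitochondrially encoded genes took 22.7% of the counts in young, 21.2% in aged control and 19.6% in aged EPA. Among shares of a total, a lower share of these very abundant transcripts goes with a slightly higher share of the others. The deposited CPM are not exact shares, and summed to 1009950 in young and 988188 in aged EPA. In a tissue sample, fewer cells of a type and less RNA per cell cannot be told apart.

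The transcriptomes of the aged EPA and young libraries were close. Changes are given as the log2 ratio of CPM + 1, aged EPA over young, and 94.6% of the compared genes lay within 1.5-fold. Their median was -0.04, with quartiles at -0.19 and 0.11, and 5610 genes, 43.3%, lay above 0. Scaling by a trimmed mean of log ratios puts the median at 0. Of the 12984 genes that averaged at least 1 CPM after that scaling, 6483 lay above 0, or 49.9%. At least 2-fold higher in aged EPA were 104 genes, 0.802% of those compared, and at least 2-fold lower were another 104, again 0.802%. Past 1.5-fold there were 311 higher genes (2.40%) and 384 lower ones (2.96%). Against the same young library, aged control had 116 higher and 109 lower genes past 2-fold. Fos (25.8 CPM in young, 52.5 in aged EPA) was the last gene inside the 2-fold limit on the higher side and Mib1 (55.2 and 111) the first outside. On the lower side these were Ebf2 (10.5 and 4.71) and S100a4 (10.8 and 4.91).

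**Figure D1:**
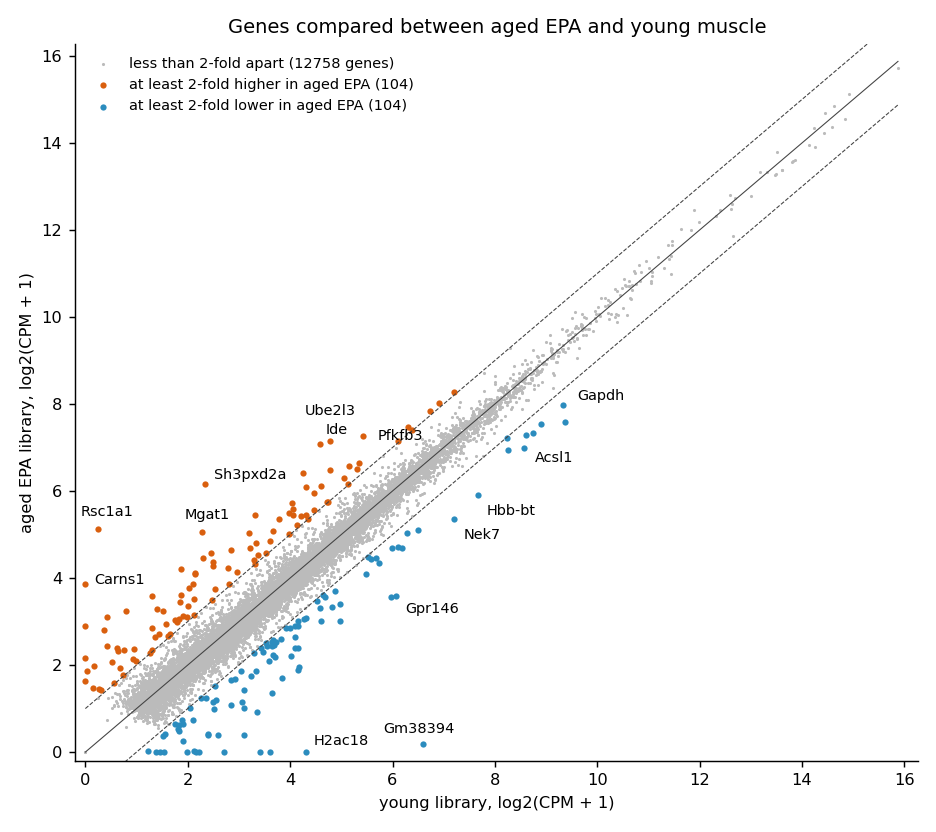
Each point is 1 of the 12966 compared genes, with log2(CPM + 1) in the young library on the x axis and in the aged EPA library on the y axis. The solid line marks equal values and the dashed lines 2-fold, beyond which lie 104 orange genes (higher in aged EPA) and 104 blue genes (lower), spread over low and middle levels, while the most abundant genes stay close to the solid line.

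The genes furthest apart in each direction, 15 of them higher and 14 lower, are named, out of those that averaged 5 CPM or more and have a descriptive symbol. Where 3 CPM values follow a gene, the first is of young, the next of aged control and the last of aged EPA. Sh3pxd2a, which encodes the podosome scaffold TKS5 (chromosome 19, 47260174 to 47464401), stood at 4.07, 72.8 and 70.2 CPM. Its count ratio of aged EPA to young was 17.4-fold, a log2 ratio of 4.12 with a 95% counting interval of 3.93 to 4.32. Both aged libraries were thus far above young and close to each other. Carns1, the enzyme that makes the muscle dipeptide carnosine (chromosome 19, 4164324 to 4175479), was listed at 0 in the young library, against 11.4 and 13.7 CPM in the aged ones. No fold is given against a library at 0. It overlaps the antisense gene Gm17552, at 0.673, 0.923 and 1.39 CPM.

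A group of higher genes had its highest value in aged EPA and a lower one in aged control. Ide, the insulin-degrading enzyme (chromosome 19, 37268743 to 37337852), stood at 23, 44.3 and 134 CPM, a count ratio of 6.13-fold between aged EPA and young. Ube2l3, a ubiquitin-conjugating enzyme (chromosome 16, 17152013 to 17202649), stood at 26.6, 63.8 and 142 CPM, a ratio of 5.46-fold. Mgat1, the glycosyltransferase that opens the way to complex N-glycans (chromosome 11, 49244191 to 49263030), stood at 3.87, 6.70 and 32.5 CPM, a ratio of 8.85-fold. For these 3 genes aged control lay between young and aged EPA. Pfkfb3, which makes the activator of phosphofructokinase and so speeds glycolysis, had the same order at 42.1, 61.7 and 152 CPM. Its log2 change was 1.83, in a list of glycolysis genes with a median of -0.08 and 7 of 19 members above 0.

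Other higher genes had nearly the same level in both aged libraries. Repin1, a zinc finger protein, stood at 2.66, 15.8 and 17.4 CPM. Zbtb4, a zinc finger repressor that binds methylated DNA, stood at 8.91, 44.3 and 42.4 CPM. Phc3, a Polycomb subunit, stood at 4.48, 24.7 and 22.8 CPM, and Rnf170, a ubiquitin ligase of the endoplasmic reticulum, at 3.93, 19.8 and 20.9 CPM. Tmem132b, a membrane protein, stood at 1.45, 8.18 and 11 CPM. In all 5 of these genes young was the low library, and the aged libraries differed by less than 1.5-fold. The remaining higher genes are the immunoglobulin chains Igkc and Ighg2c, described with the immune lists, and Rsc1a1, Zc3h11a and Cyren, which share exons with another gene.

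Among the lower genes, Nek7, a mitotic kinase also needed for the NLRP3 inflammasome (chromosome 1, 138482875 to 138620141), stood at 147, 40.0 and 39.9 CPM, with young far above both aged libraries. Traf3, an adaptor of tumour necrosis factor receptors, stood at 17.0, 5.29 and 2.89 CPM, and Coa7, an assembly factor of cytochrome oxidase, at 16.9, 6.72 and 2.72 CPM. In these 3 genes aged control was also at least 2-fold below young, with log2 changes of -1.85, -1.52 and -1.21.

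For 8 other lower genes aged control stayed nearer to young. Gpr146, an orphan G protein-coupled receptor (chromosome 5, 139377697 to 139396415), stood at 66.4, 54.7 and 11 CPM, a log2 change of -2.49. Stx17, the SNARE protein that fuses autophagosomes with lysosomes (chromosome 4, 48124915 to 48186507), stood at 30.6, 30.1 and 7.09 CPM, a log2 change of -1.97. Acsl1, the main long-chain acyl-CoA synthetase of muscle (chromosome 8, 46471037 to 46536051), stood at 377, 327 and 126 CPM, a log2 change of -1.57 with a count ratio interval of -1.58 to -1.51. Aged EPA was the low library in each, and the other libraries lay within 1.5-fold of each other. Creb1, the transcription factor that binds cyclic AMP response elements, stood at 15.3, 9.87 and 3.60 CPM, and Osgin1, an oxidative stress-induced growth inhibitor, at 16.2, 13.3 and 4.28 CPM. Miga2, which acts in mitochondrial fusion, stood at 23.4, 17.7 and 7.12 CPM, and Cd59a, the inhibitor of the complement membrane attack complex, at 30.4, 23.7 and 9.55 CPM. Tmem168, a membrane protein, stood at 16.7, 12.9 and 4.21 CPM. The log2 change between aged control and young was -0.02 for Stx17 and -0.58 for Creb1, the ends of the range over these 8 genes.

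**Figure D2:**
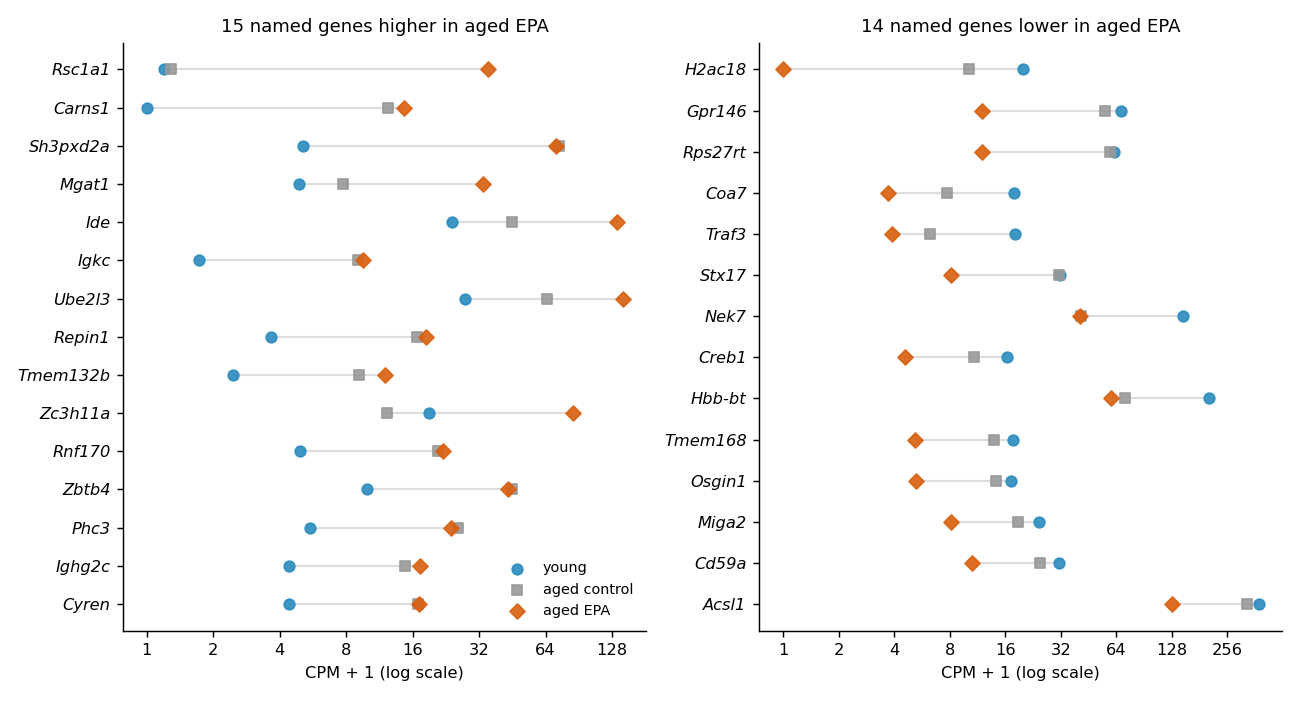
CPM + 1 on a log scale in the young (circle), aged control (square) and aged EPA (diamond) library for the 15 named genes furthest above young and 14 of those furthest below. Each symbol is 1 pooled library without an error, and aged control lies beside aged EPA for genes such as Sh3pxd2a and Nek7 and beside young for Rsc1a1, Stx17 and Gpr146.

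Several of the largest changes sat in genes that share sequence with another gene, where the counting decides which gene a read goes to. Whether reads were counted by strand is not given in the sources used here. Rsc1a1, a regulator of sugar transport whose gene (chromosome 4, 141683851 to 141685599) lies inside the aspartic protease gene Ddi2, stood at 0.191, 0.286 and 34 CPM, and Ddi2 at 52.5, 68.3 and 64.9 CPM. Every 50-base word of the longest Rsc1a1 transcript also occurs in Ddi2 transcripts. The sum of both genes was 52.6, 68.6 and 98.9 CPM, a log2 change of 0.90. The zinc finger gene Zc3h11a (chromosome 1, 133619862 to 133661380) stood at 17.9, 11.2 and 83.8 CPM, while the gene model Gm38394, which overlaps it on the same strand, stood at 95.4, 81.0 and 0.139 CPM. Their sum was 113, 92.2 and 83.9 CPM, so that the log2 change of the sum, -0.43, had the opposite sign to the 2.16 of Zc3h11a alone. Cyren, which modulates DNA end joining, overlaps Tmem140 on the opposite strand and stood at 3.41, 15.9 and 16.1 CPM. Tmem140 itself stood at 51.2, 54.9 and 62.0 CPM, and the log2 change of 1.96 for Cyren became 0.51 for the sum of both genes.

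Some lower genes also share sequence with another gene, and their sums differed in how far they stayed from young. Rps27rt, an intronless copy of the ribosomal protein gene Rps27 (chromosome 9, 114982366 to 114982739), stood at 61.5, 58.2 and 10.9 CPM, and 91.1% of its 50-base words occur in Rps27. Rps27 itself stood at 120, 69.6 and 115 CPM, so that the sum, 182, 128 and 126 CPM, put both aged libraries at a like level below young. H2ac18, a replication-dependent histone H2A gene (chromosome 3, 96245497 to 96246082), stood at 19 and 9.24 CPM and was listed at 0 in aged EPA. The annotation overlaps it with the processed transcript Gm20634, at 6.34, 4.69 and 7.44 CPM, and the log2 change of that sum was -1.64. Gapdh, the glycolytic enzyme often used as a reference gene, stood at 642, 372 and 251 CPM, a log2 change of -1.35. At least 20% of its 50-base words occur in each of 11 processed pseudogenes of the tables, and Gapdh with these copies summed to 5421, 4927 and 5468 CPM, a log2 change of 0.01. Ccl21a, a chemokine of lymphatic vessels, stood at 3.5 and 3.44 CPM and was listed at 0 in aged EPA, and with its 4 copies the sum was 11.2, 6.86 and 11.9 CPM.

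Over all compared genes, 31.0% share exon bases with another gene of the tables. The share was 35.6% among the 104 genes at least 2-fold higher and 49.0% among the 104 at least 2-fold lower. With each gene added to those it overlaps, an alternative chosen after seeing the data, 15 of the higher and 24 of the lower genes came within 1.5-fold. Adding an abundant gene brings a ratio nearer to that gene's own, however reads were assigned. These counts therefore do not tell whether reads went to the wrong gene. Of the 56 genes searched for copies (the named genes and the list members near or past 2-fold), 13 had another gene holding at least 20% of their words.

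**Figure D3:**
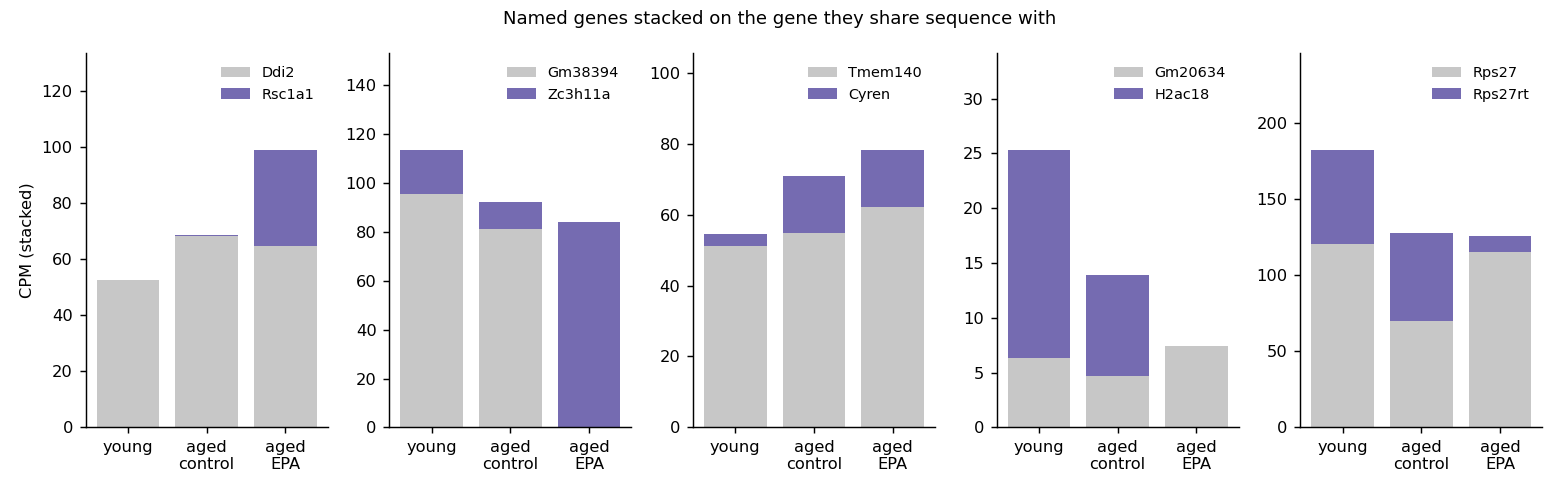
Stacked bars of CPM in the young, aged control and aged EPA library for 5 named genes (purple) on the gene they share sequence with (grey). From young to aged EPA, the log2 change of purple part and whole bar is 4.88 and 0.90 for Rsc1a1, and -2.39 and -0.53 for Rps27rt. In CPM the whole bar changes by more than the purple part for both. For Zc3h11a the log2 changes are 2.16 and -0.43, and the whole bar is lowest in aged EPA although the purple part is highest there.

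Lists of 57 gene groups were then read against the median of all genes (-0.04) and against the shares past each fold given above. With 1 library per group, a list is described by its counts and its median alone. Comparisons of each aged library with young use the same young library, so that a young value that is high or low by chance moves both.

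**Figure D4:**
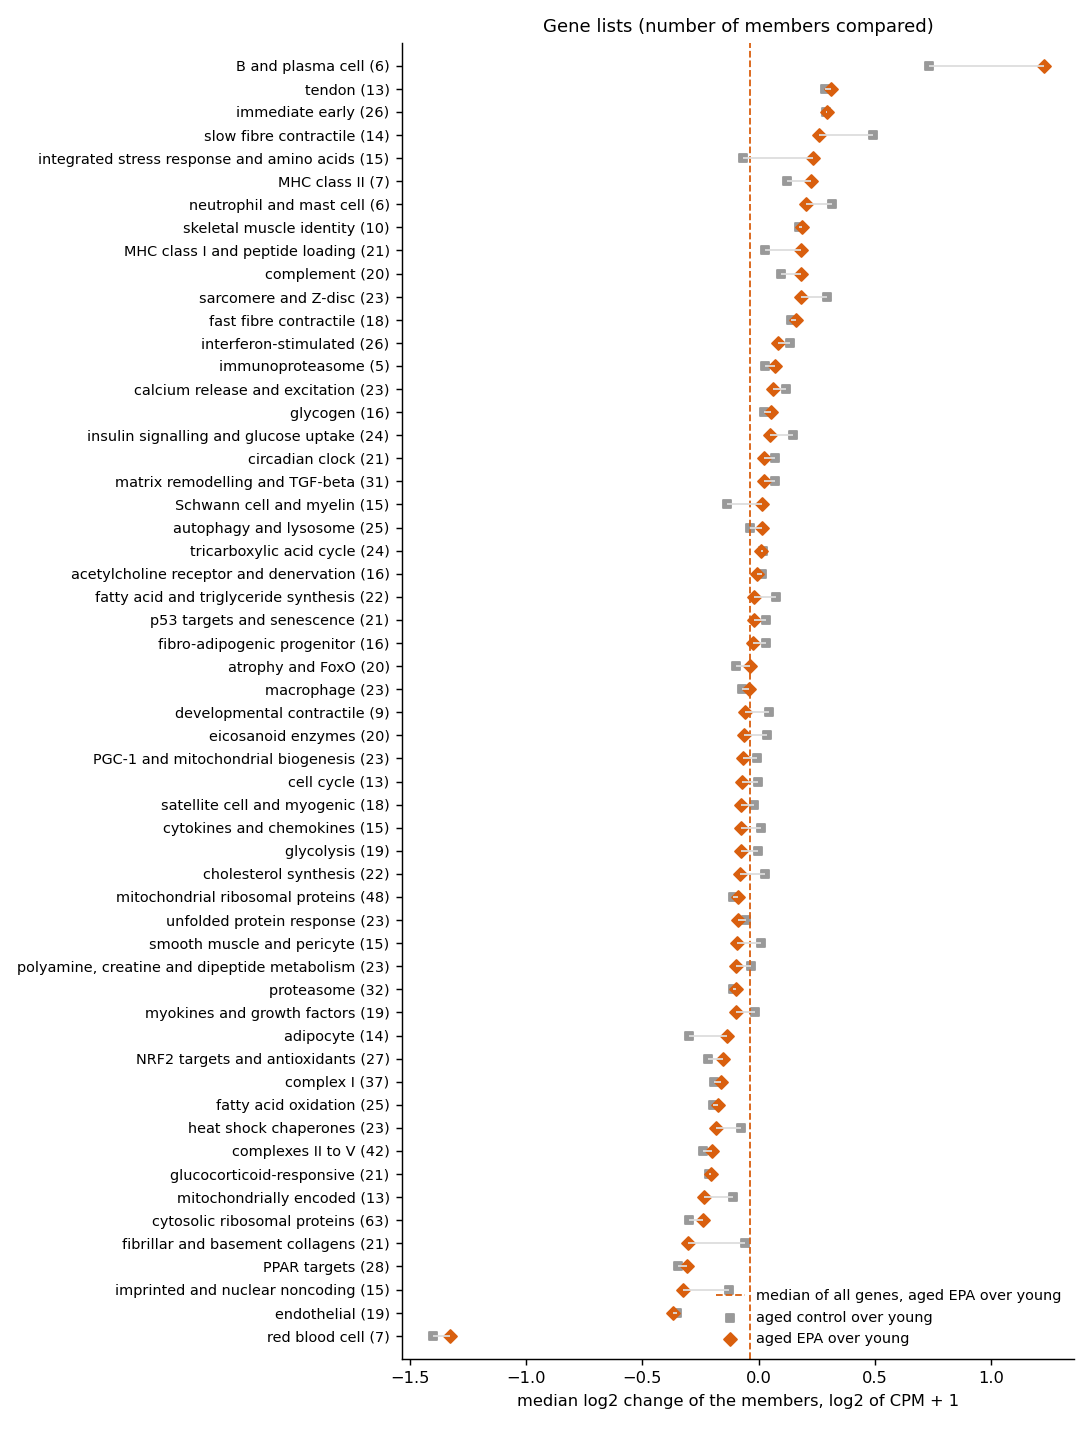
Median log2 change of the members of 56 gene lists, aged EPA over young (orange diamonds) and aged control over young (grey squares), with the number of members compared in parentheses and the median of all genes, -0.04, as a dashed line. Most lists lie within 0.2 of that line, red blood cell genes lie at -1.33 and B and plasma cell genes at 1.23. The value of 1.23 rests on 6 genes, some of which passed the filter on low values through the aged libraries alone. Without that filter it was 0.17.

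Contractile genes of adult fibres were mostly a little higher in aged EPA. Of 18 genes of fast fibres, 15 lay above 0, with a median of 0.16 and none past 1.5-fold. With mitochondrial and the most abundant genes left out, 10 of the 14 that stayed were above 0 and the median was 0.08. Myh4, the myosin heavy chain of the fastest fibres, had a log2 change of 0.23, Myh1 of 0.34 and Myh2 of -0.05. Mybpc2, fast myosin-binding protein C, had the largest at 0.57 (3767 CPM in young, 5588 in aged EPA). Of 14 slow-fibre genes, 10 lay above 0, with a median of 0.26 in aged EPA and 0.49 in aged control. Myh7, the myosin heavy chain of slow fibres, stood at 66.4, 178 and 126 CPM. Its young value was the lowest and aged EPA lay between the others. Tnni1, slow troponin I, had the same order at 18.5, 39.0 and 29.7 CPM, as did Myl2, the slow regulatory light chain, at 95.9, 150 and 136 CPM. Of 9 developmental contractile genes 3 were above 0, with a median of -0.06. Csrp3, a mechanosensing protein of the Z-disc in the slow-fibre list, was below 0 at 96.6, 72.0 and 60.6 CPM, as was Actc1, the cardiac actin of developing muscle, at 81.8, 48.5 and 41.9 CPM. The calcium channel subunits Cacna1s (0.48), Cacng1 (0.64) and Cacnb1 (0.06) and the release channel Ryr1 (0.33) were above 0. Their list had a median of 0.06, with 16 of 23 members above 0.

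Genes of the respiratory chain and of ribosomes were slightly lower. All 13 mitochondrially encoded genes were below 0, with a median of -0.23 in aged EPA and -0.11 in aged control. The largest difference was in mt-Nd6, the 1 protein gene of the light strand, at 6449, 6169 and 3698 CPM. Without strand its reads cannot be told from those of the opposite strand. The nuclear subunits of complex I had a median of -0.16 with 5 of 37 above 0, and those of complexes II to V a median of -0.20 with 5 of 42 above 0. Ndufb5 of complex I stood at 229, 194 and 137 CPM and Ndufa12 at 60.4, 40.8 and 37.5 CPM. No subunit of these lists was 2-fold apart. The tricarboxylic acid cycle, by contrast, had a median of 0.01, with all 24 members within 1.5-fold. Cytosolic ribosomal proteins were below 0 in 60 of 63 genes, with a median of -0.24 in aged EPA and -0.30 in aged control. After scaling by a trimmed mean, 9 rather than 3 of the 63 were above 0. Rpl41, Rps28 and Rpl17 were the furthest below, and Rpl17 shares sequence with 4 pseudogenes of the tables. Across the 12966 genes of these same libraries the change had a Spearman rho of 0.11 with exon length and 0.16 with GC content. With the trend of GC content subtracted, the median of the mitochondrially encoded genes was -0.12 in place of -0.23, and with that of exon length -0.15. The medians of both nuclear respiratory lists and of the cytosolic ribosomal proteins stayed between -0.26 and -0.11 under either.

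The 28 compared targets of PPARs were mostly lower in aged EPA. Their median was -0.31, with 3 of 28 above 0 and 4 past 1.5-fold lower, and aged control had -0.35. Pdk4, the kinase that shuts pyruvate dehydrogenase when fat is burned, stood at 1520 CPM in young, 1019 in aged control and 1051 in aged EPA. Angptl4, an inhibitor of lipoprotein lipase, stood at 18.2, 12.0 and 11.3 CPM. Ucp3, a mitochondrial uncoupling protein of muscle, stood at 323, 219 and 241 CPM. Young was the highest library in these 3 genes, and the aged libraries differed from each other by less than from young. Acot1, an acyl-CoA thioesterase, was at 5.89, 3.48 and 2.94 CPM. Acsl1 was the 1 member past 2-fold, and in aged control its log2 change was -0.21. The carnitine palmitoyltransferase Cpt1b, the entry step of fatty acids into mitochondria, stood at 350, 350 and 363 CPM, and the median over the 25 genes of fatty acid oxidation was -0.17.

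Lipid synthesis and sugar metabolism held single genes apart from lists that were near 0. Agpat2, an acyltransferase of triglyceride synthesis, stood at 1.86, 6.64 and 8.42 CPM, a log2 change of 1.72. Lpin1, the phosphatidate phosphatase of the same route, stood at 221, 421 and 420 CPM, a log2 change of 0.92. Scd1, the desaturase that makes monounsaturated fatty acids, stood at 155, 227 and 242 CPM. Young was the lowest library in all 3, while the list of fatty acid and triglyceride synthesis had a median of -0.02 with 10 of 22 above 0. In the glycogen list, Gys1, the muscle glycogen synthase, was high in aged control alone at 278, 537 and 330 CPM. Cholesterol synthesis (median -0.08) and the enzymes that make eicosanoids (-0.06) held no gene past 2-fold, and Tbxas1, thromboxane synthase, was the 1 eicosanoid enzyme past 1.5-fold, at 2.27, 3.44 and 3.92 CPM.

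Stress lists differed in direction. Heat shock chaperones had a median of -0.19 with 7 of 23 above 0, and Dnajb4, a partner of the 70 kDa chaperones, stood at 76.9, 74.8 and 32.0 CPM. The inducible chaperone Hspa1a stood at 25.9, 15.3 and 14.5 CPM. The integrated stress response had a median of 0.23 with 11 of 15 above 0, where aged control had -0.07. The median was 0.14 with a pseudocount of 5 CPM and 0.12 among genes that averaged 5 CPM or more. Mthfd2, a mitochondrial folate enzyme, stood at 4.44, 3.05 and 7.56 CPM, and Pycr1, of proline synthesis, at 1.98, 1.70 and 3.73 CPM. Aged EPA was the highest library in both. Targets of the antioxidant regulator NRF2 were above 0 in 6 of 27 cases (median -0.16), yet Srxn1, sulfiredoxin, stood at 8.20, 35.5 and 31.9 CPM, a log2 change of 1.84. Xbp1, a transcription factor of the unfolded protein response and of plasma cells, stood at 32.3, 31.4 and 78.1 CPM, in a list whose median was -0.09 and in which no other member passed 1.5-fold. Of 21 glucocorticoid-responsive genes, 6 were above 0 and the median was -0.20. The metallothioneins Mt1 (50.1, 24.1 and 20.9 CPM) and Mt2 (43.8, 19.6 and 16.1 CPM), which bind zinc and copper, were both more than 2-fold lower in aged EPA. The muscle atrophy ligases Fbxo32 (-0.04) and Trim63 (-0.40) sat in a list with a median of -0.04, and the proteasome list had -0.10 with no gene past 1.5-fold.

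Genes of the circadian clock lay on both sides of 0. Arntl, which encodes the activator BMAL1, stood at 25.5, 15.9 and 14 CPM, and its relative Npas2 at 2.05, 1.84 and 0.801 CPM. The output gene Dbp stood at 70.3, 109 and 116 CPM, and the repressors Per1 (69.7, 97.3 and 97.0 CPM), Per2 (16.9, 30.0 and 25.4 CPM) and Cry2 (50.1, 68.2 and 68.3 CPM) were also lowest in young. The list of 21 genes had a median of 0.02. The time of day of tissue collection is not given in the sources used here.

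Immediate early genes, which respond to stimuli within minutes through factors such as SRF and CREB, were higher in aged EPA in 22 of the 26 compared, with a median of 0.29 that aged control shared. Past 2-fold were Fos and Fosb, subunits of the AP-1 factor, and 6 of 26 were past 1.5-fold. Fosb stood at 1.72, 6.44 and 5.60 CPM and Fos at 25.8, 71.0 and 52.5 CPM. Dusp1, a phosphatase of MAP kinases, stood at 95, 165 and 146 CPM, and Egr1, a zinc finger activator, at 32.5, 61.1 and 56.6 CPM. In these 4 genes young was the lowest and aged control the highest library. Gadd45b (25, 17.5 and 18.2 CPM) was the member furthest below 0, at -0.44. The promoters of 3 of the higher genes are shown because members of the list moved together. They run from 250 bases before to 50 bases after the start, from RefSeq on GRCm38.p6, 5′ to 3′ along the gene, with TGACG or its reverse complement, the core of the cyclic AMP response element, in capitals.
Fos, chr12:85473640-85473939, plus strand: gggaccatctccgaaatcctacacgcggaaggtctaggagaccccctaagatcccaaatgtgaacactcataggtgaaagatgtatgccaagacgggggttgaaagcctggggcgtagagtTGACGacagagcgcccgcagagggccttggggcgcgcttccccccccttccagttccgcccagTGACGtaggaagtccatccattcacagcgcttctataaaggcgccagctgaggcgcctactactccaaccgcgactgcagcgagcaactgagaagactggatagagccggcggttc
Fosb, chr7:19309996-19310295, minus strand: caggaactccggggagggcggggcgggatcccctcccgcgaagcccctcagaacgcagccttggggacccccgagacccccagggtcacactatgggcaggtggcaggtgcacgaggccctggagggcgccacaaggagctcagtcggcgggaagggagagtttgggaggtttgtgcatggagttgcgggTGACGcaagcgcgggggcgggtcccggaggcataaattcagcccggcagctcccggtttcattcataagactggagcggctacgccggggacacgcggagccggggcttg
Dusp1, chr17:26508423-26508722, minus strand: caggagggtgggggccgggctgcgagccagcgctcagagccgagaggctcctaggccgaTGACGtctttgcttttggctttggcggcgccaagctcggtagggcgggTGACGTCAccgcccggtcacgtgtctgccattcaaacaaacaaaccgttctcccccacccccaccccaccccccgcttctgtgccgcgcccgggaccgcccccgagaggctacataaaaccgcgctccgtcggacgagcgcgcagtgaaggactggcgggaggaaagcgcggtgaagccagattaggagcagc

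The TGACG match nearest to the start lies 66 to 62 bases upstream in Fos and 60 to 56 bases upstream in Fosb. In Dusp1 a plus-strand and a minus-strand match overlap between 143 and 136 bases upstream, forming the full palindrome. TGACG was searched on both strands in the promoters of the 22 immediate early genes with an entry and occurred in 12, while 20.8% of all 32851 promoters of this length in the table hold it. The CArG box, to which SRF binds, occurred in 1 of the 22, Zfp36, and in 1.63% of all promoters. A match describes letters in this window and no more.

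Genes of the extracellular matrix split between collagens and tendon. Fibrillar and basement membrane collagens were lower in aged EPA in 20 of 21 genes (19 under 3 of the 4 other scalings), with a median of -0.31, where aged control had -0.06. Col3a1, the collagen of reticular fibres, stood at 217, 150 and 110 CPM, a log2 change of -0.97. Col1a1, of the main fibrillar collagen, stood at 171, 134 and 107 CPM, and Col15a1, of the zone around fibres and capillaries, at 53.2, 43.8 and 33.0 CPM. Each of the 3 was highest in young and lowest in aged EPA. Col4a1 (215, 173 and 160 CPM) and Col4a2 (159, 124 and 117 CPM), of basement membranes, had the same order. Col22a1, of the muscle-tendon junction, was the 1 member above 0, at 12.6, 17.1 and 15.9 CPM. The list of matrix remodelling and TGF-beta had a median of 0.02 with 18 of 31 above 0. Its members ran from Timp1, an inhibitor of matrix proteases, at 2.40, 1.05 and 0.778 CPM, to Thbs1, a matrix protein that activates TGF-beta, at 16.2, 25.9 and 25.7 CPM. Fn1, fibronectin, had a log2 change of 0.28. The levels of these transcripts say nothing of the amount of collagen protein, which was not measured.

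Genes of tendon were higher in 11 of 13 members, with a median of 0.31 in aged EPA and 0.28 in aged control. Prg4, the lubricant lubricin, stood at 11.1, 23.9 and 27.7 CPM, Comp, a cartilage and tendon matrix protein, at 9.60, 11.8 and 17.3 CPM, and Tnmd, tenomodulin, at 5.23, 9.51 and 7.66 CPM. The 4 tendon marker genes summed to 158 CPM in young, 196 in aged control and 191 in aged EPA. The part that the tendon tissue in each sample has in these values was not tested. Markers of fibro-adipogenic progenitors, the mesenchymal cells that make much of the matrix, summed to 217, 167 and 203 CPM, with Pdgfra at 41.0, 43.4 and 42.5 CPM.

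**Figure D5:**
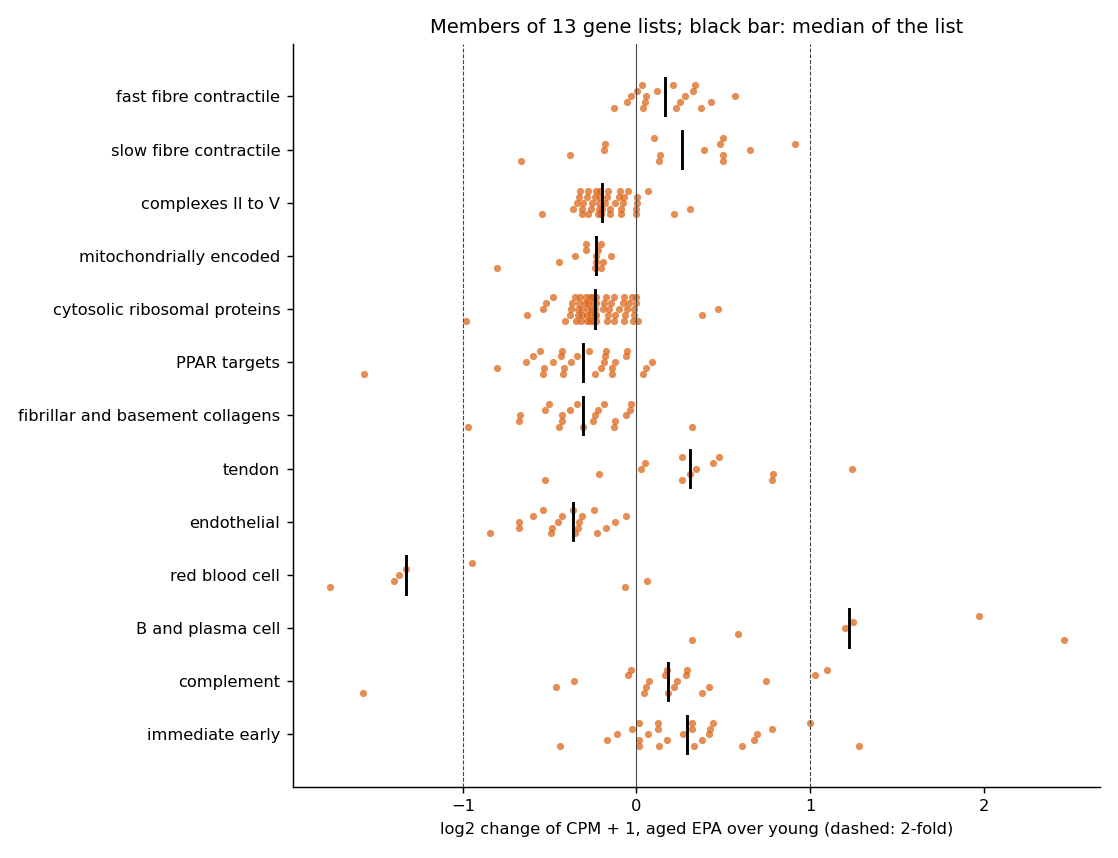
Log2 change of CPM + 1, aged EPA over young, for each compared member (orange point) of 13 gene lists, with the median as a black bar and 2-fold as dashed lines. The 4 globin genes lie left of -1, all endothelial and mitochondrially encoded members lie below 0, and ribosomal and respiratory genes form narrow groups just below 0.

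Transcripts of blood and vessels were lower in aged EPA than in young. The 4 adult globin genes were each more than 2-fold lower. Hba-a1 stood at 479, 180 and 185 CPM, Hba-a2 at 427, 158 and 161 CPM, Hbb-bs at 388, 146 and 154 CPM and Hbb-bt at 202, 70.6 and 58.6 CPM. Young was the highest library in each, by more than 2-fold over both aged libraries. The alpha genes share 86.9% of the words of Hba-a2 and the beta genes 65.8% of those of Hbb-bs, so reads within a pair may be split between its genes. Summed by pair, the log2 change was -1.38 for alpha and -1.47 for beta. Alas2, the first enzyme of haem synthesis in red cells, stood at 12.9, 6.01 and 6.23 CPM, a log2 change of -0.95. Fech (0.06) and Bpgm (-0.07), which other tissues also express, were near 0, so that 6 of the 7 compared members of the red blood cell list were below 0 and 4 past 2-fold. Whether the muscles were flushed of blood is not given in the sources used here, and the part of blood left in the samples was not tested.

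Promoters of 3 globin genes are shown for the same reason as above, from the same source. Capitals mark the CACCC box, the CCAAT box and the GATAA site or their reverse complements, elements known from globin promoters and chosen after the values were seen.
Hba-a1, chr11:32283422-32283721, plus strand: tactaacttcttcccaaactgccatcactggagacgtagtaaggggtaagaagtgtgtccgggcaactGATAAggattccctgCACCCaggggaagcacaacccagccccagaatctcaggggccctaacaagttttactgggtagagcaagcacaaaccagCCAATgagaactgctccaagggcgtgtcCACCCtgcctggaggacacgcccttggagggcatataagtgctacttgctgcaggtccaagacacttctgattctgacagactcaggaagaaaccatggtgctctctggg
Hbb-bs, chr7:103827879-103828178, minus strand: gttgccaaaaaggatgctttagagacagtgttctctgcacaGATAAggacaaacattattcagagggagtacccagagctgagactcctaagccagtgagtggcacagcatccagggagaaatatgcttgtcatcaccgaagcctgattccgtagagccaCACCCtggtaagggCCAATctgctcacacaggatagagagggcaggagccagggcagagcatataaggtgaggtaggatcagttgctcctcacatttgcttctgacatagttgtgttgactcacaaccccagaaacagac
Hbb-bt, chr7:103813874-103814173, minus strand: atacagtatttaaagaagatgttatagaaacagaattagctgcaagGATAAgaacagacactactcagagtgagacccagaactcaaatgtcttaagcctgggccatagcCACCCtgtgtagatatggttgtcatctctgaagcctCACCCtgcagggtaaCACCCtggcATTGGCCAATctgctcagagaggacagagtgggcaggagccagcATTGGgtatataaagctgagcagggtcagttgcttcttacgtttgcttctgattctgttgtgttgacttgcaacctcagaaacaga

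The CCAAT box lies 88 to 84 bases before the start in Hba-a1, 76 to 72 bases before it in Hbb-bs and 75 to 71 bases before it in Hbb-bt. In Hbb-bt a match on the other strand lies directly beside it, 80 to 76 bases upstream. A GATAA match lies 182 to 178 bases upstream in Hba-a1 and 209 to 205 bases upstream in Hbb-bs. Of the 6 red blood cell genes with a promoter entry, 5 held CACCC, 5 held CCAAT and 5 held GATAA, searched on both strands. Over all 32851 promoters the shares were 57.5%, 37.4% and 25.4%.

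Endothelial genes were lower in aged EPA in all 19 compared members (18 when counts were taken over each library's own total), with a median of -0.37 and, in aged control, -0.35. Pecam1, an adhesion protein of endothelial junctions, stood at 103, 82.2 and 79.9 CPM, and Cdh5, vascular cadherin, at 128, 99.2 and 93.2 CPM. Cldn5, the claudin of tight junctions, had the largest change, -0.84, at 24.1, 9.22 and 13 CPM. Kdr, the main receptor of vascular endothelial growth factor, had 45.3, 46.8 and 41.5 CPM and so differed by less than most of the list. None of the 19 was 2-fold apart and 4 were past 1.5-fold lower. The 5 defining endothelial markers summed to 320, 252 and 243 CPM. Smooth muscle and pericyte genes had a median of -0.09, with Acta2 at 118, 127 and 111 CPM and Pdgfrb at 52.3, 47.4 and 38.9 CPM.

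The compared immunoglobulin chains, and the chain that joins them, had their lowest value in young. Igkc, the constant region of the kappa light chain (chromosome 6, 70726435 to 70726966), stood at 0.728, 8.02 and 8.51 CPM, with 42 counts in young and 489 in aged EPA. Ighg2c, an IgG heavy chain constant region (chromosome 12, 113285325 to 113288932), stood at 3.42, 13.8 and 16.3 CPM, and Ighm, that of IgM, at 148, 211 and 222 CPM. Jchain, which joins secreted IgM and IgA, stood at 0.196, 1.31 and 1.75 CPM. Of the 21 genes of the list 19 were in the tables and 6 were compared, all above 0 and 4 past 2-fold, but members such as Igkc and Jchain passed the filter on low values through the aged libraries alone, so this count supports nothing. Without that filter the median of the list was 0.17 in place of 1.23. Xbp1 and Cd74, which many cells express, are among the 6. The B cell receptor gene Cd79a was at 0.553, 0.336 and 0.139 CPM and Ms4a1, the gene of CD20, at 0.321, 0 and 0.052 CPM, levels that rest on few reads. Of 18 T and NK cell genes none reached a mean of 1 CPM.

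MHC class I genes had a median of 0.18 with 16 of 21 above 0, and H2-Q6 (7.69, 9.72 and 11.9 CPM) and H2-Q7 (4.86, 6.28 and 8.10 CPM), class I genes known as close copies of each other, were among the furthest above 0. Of 7 class II genes 4 were above 0 and 3 below, and the median of 0.22 became 0.06 without the filter on low values and 0.10 with mitochondrial and the 20 most abundant genes left out. H2-Ab1 (36.5, 39.9 and 45.2 CPM), H2-Eb1 (26.1, 30.9 and 33.0 CPM) and the invariant chain Cd74 (125, 141 and 157 CPM) were each highest in aged EPA, while H2-DMa, which helps to load peptides, stood at 5.11, 4.02 and 4.06 CPM. Of 20 complement genes 15 were above 0, with a median of 0.18. C7, of the membrane attack complex, stood at 14.8, 29.4 and 31.2 CPM, and C4b at 29.6, 40.3 and 50.4 CPM. C7 was past 2-fold higher and the membrane inhibitor Cd59a past 2-fold lower. Macrophage genes as a list had a median of -0.04, with Csf1r at 36.8, 45.7 and 42.6 CPM and Cd163, a scavenger receptor of resident macrophages, at 26.8, 35.8 and 36.7 CPM. No member of that list was past 1.5-fold.

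Of 15 cytokine genes 6 were above 0, with a median of -0.07. The chemokines Ccl8 (1.97, 2.57 and 6.68 CPM) and Cxcl13 (1.47, 2.09 and 4.10 CPM), which draw monocytes and B cells, were highest in aged EPA by more than 2-fold over young. Ccl2 stood at 1.93, 1.15 and 1.18 CPM and Ccl21a, the 1 member past 1.5-fold lower, differed by 0.08 on the log2 scale when summed with its copies. Interferon-stimulated genes had a median of 0.08, and Ifit2, which binds RNA of viruses, stood at 4.25, 5.07 and 0.313 CPM while its neighbours Ifit1 (2.36, 4.07 and 3.00 CPM) and Ifit3 (4.02, 4.17 and 4.02 CPM) were near or above their young values. Gdf11, a growth factor of the myostatin family, stood at 9.42, 19.4 and 22.3 CPM, and its relative Mstn, myostatin itself, at 70.7, 81.1 and 74.5 CPM. Among imprinted and nuclear noncoding genes, H19, a maternally expressed RNA that is abundant in muscle, stood at 78.0, 87.7 and 177 CPM, a log2 change of 1.17, while Meg3 and Rian, of another imprinted cluster, had -0.75 and -0.70. The list had 11 of 15 members below 0.

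Lists of other cells and of muscle regeneration were near the median of all genes. Satellite cell and myogenic genes had a median of -0.07, with Pax7, the defining factor of satellite cells, at 2.37, 2.13 and 1.32 CPM and Myod1 at 33.7, 24.7 and 26 CPM. Acetylcholine receptor and denervation genes had -0.01, with Chrna1 at 18, 19.8 and 18.3 CPM. Schwann cell genes had 0.01 (0.14 without the filter on low values), and Pmp22, a protein of myelin, was their 1 member past 1.5-fold, at 42.3, 64.6 and 69.0 CPM. Adipocyte genes had a median of -0.14 in aged EPA and -0.30 in aged control, with 3 of 14 above 0. Fabp4, a fatty acid carrier that endothelium also expresses, stood at 260, 173 and 178 CPM and Pparg, the receptor that drives fat cell formation, at 6.71, 6.54 and 4.93 CPM. Adipoq, the hormone adiponectin, stood at 16.8, 15.9 and 18.4 CPM, and Lep, leptin, was the furthest above 0 at 2.46, 5.37 and 5.62 CPM. Genes of p53 and senescence had -0.02, with Cdkn1a at 34.6, 29.7 and 29.9 CPM and Eda2r, a receptor of the tumour necrosis factor family, at 25.3, 40.6 and 39.0 CPM.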

How the data were processed

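Bulk RNA-seq of 3 pooled libraries was used, 1 per group, grouped by the labels. Per the submitters' processing notes, HISAT2 2.1.0, StringTie 1.3.4d and R 3.5.0 were used with mouse build GRCm38. The authors deposited CPM per gene. These values were made with 5 divisors that vary between genes rather than 1 per library, which shifts a log2 change by at most 0.08 against each library's own total. Deposited CPM were compared as log2 ratios of CPM + 1 for genes that averaged 1 CPM or more, and no test was made. Counting intervals (95%, exact Clopper-Pearson) of the ratio of recovered counts cover counting error only, not mice or preparations, and they use no added 1. A count of 3 in a library is worth 0.0523 CPM in young and 0.0536 in aged EPA. Named genes were the 15 per direction with the largest change at a mean of at least 5 CPM and a descriptive symbol, and per list the first 3 compared members and the 3 with the largest change; others named were chosen after their values were seen. Not every gene that fits these rules is printed, and some are not reported here. The comparison, members and lists were chosen with earlier results of these data known. Exons, positions and transcripts came from GENCODE M21, in which 42256 of 42258 identifiers were found, and promoters from RefSeq. The calculation was tested on simulated data. Python 3.11.15 with numpy 2.4.6, pandas 2.3.3 and scipy 1.17.1 was used. The results were recomputed under 12 other settings and under 1 more chosen after seeing the data.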

Additional observations from a re-analysis of the deposited data

How the results depend on the processing

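The 104 higher and 104 lower genes became 166 and 182 with a pseudocount of 0.1 CPM, 52 and 42 with 5 CPM, and 73 and 65 with a mean of at least 5 CPM. At 1.5-fold the counts were 311 and 384. Leaving out mitochondrial and the 20 most abundant genes gave 136 and 142. The other alternatives gave 87 to 117 higher and 80 to 111 lower genes. Scaling by median of ratios or a trimmed mean moved the median of all genes from -0.04 to about 0. With overlapping genes added, 27 of the 30 named genes stayed past 2-fold, and Zc3h11a turned to -0.43; no other named value reversed. Of the list medians, 661 of those computed under alternatives moved by less than 0.1 and 10 moved by more. The B and plasma cell median ranged from 0.17 to 1.75, and the red blood cell median from -1.33 to -0.95. Between 11 and 18 lists had a median at least 0.2 from 0, against 16. No paired analysis was possible because each group is 1 library, and no library could be left out.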
